A study of Mus musculus with 4 samples.

Results

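Among the droplets of a hippocampal single-cell experiment, 565 of 6281 barcodes with at least 200 genes carried little RNA and yet held RNA of the complement genes C1qa, C1qb and C1qc, which microglia express. They were chosen by measured values: fewer than 1500 UMIs (unique molecular identifiers, each marking 1 captured RNA molecule), at least 8 UMIs of the C1q genes together, and at most 2 UMIs of Mog, Pdgfra, Gja1, Cldn5, Snap25 and Mrc1 together, genes that mark other brain cells. Genes used in that choice, and the UMI total, are given below as description only. They are called the low-RNA barcodes here, and most comparisons set them beside 1981 reference microglia, barcodes of 1500 UMIs or more with at least 5 UMIs of P2ry12, Cx3cr1, Tmem119 and Gpr34, genes of resting microglia.

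The study prepared 1 droplet library from each of 4 male mice aged 3 months, 2 Dp(10)2Yey and 2 wild-type (WT) littermates, with C57BL/6J as the background strain. Dp(10)2Yey mice carry an extra copy of the segment of mouse chromosome 10 that corresponds to part of human chromosome 21, in every cell. Hippocampi were taken apart with enzymes at 37 °C and mechanical force (Adult Brain Dissociation Kit), then passed through a debris removal step. The work took 2 days, each with 1 mouse of either genotype, and how the replicate numbers fall on the days is not given. Values below are listed in the order WT replicate 1, WT replicate 2, Dp(10)2Yey replicate 1 and Dp(10)2Yey replicate 2. The libraries held 3002546, 6848466, 5112759 and 9612011 UMIs in 1039, 1708, 1372 and 2345 barcodes, and no barcode held fewer than 500 UMIs. Of the low-RNA barcodes 128, 141, 124 and 172 came from the respective libraries, with 108618, 127793, 108090 and 140592 UMIs, and no barcode sequence occurred among them in more than 1 library. Barcodes called as empty were not among the files used here, so the free RNA of the suspension was not profiled.

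Microglia are the resident macrophages of the brain, and they make the subunits of C1q, the recognition molecule of the classical complement pathway, together with Tyrobp, an adaptor that passes on signals from receptors such as Trem2, and Cst3, a secreted inhibitor of cathepsins. Enzymatic dissociation at warm temperature is known to induce immediate early genes and chemokines in them. Malat1 is a long noncoding RNA that stays in the nucleus, whereas messages of ribosomal proteins are held in the cytoplasm and mitochondrial messages inside mitochondria, so the share of each in a droplet describes which kinds of RNA were captured.

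The low-RNA barcodes had a median of 797 UMIs and 373 genes, where the reference microglia had 4191 UMIs and 1666 genes. Their median count of C1q UMIs was 19, against 79 in the reference, and 74 of them had no UMI of the 4 resting genes while 193 (34.2%) had at least 5. Just inside the C1q limit, 12 barcodes had 8 UMIs of these genes, and just outside it 23 otherwise eligible barcodes had 7. At the limit on other markers 5 barcodes had 2 UMIs and 6 had 3, and 25 barcodes lay within 100 UMIs below the depth limit and 28 within 100 UMIs above it. Over a wider range, 107 low-RNA barcodes had 8 to 12 C1q UMIs and 79 otherwise eligible barcodes had 3 to 7. The depth limit therefore divides a continuous range.

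Tyrobp and Cst3 were not used in the choice. The C1q limit favors barcodes with RNA of microglia, so a higher level than in other cell types follows in part from it. The levels are given as description. Tyrobp had a UMI in 91.0% of the low-RNA barcodes, beside 7.32% of 82 equally shallow barcodes with oligodendrocyte genes and 4.28% of 514 with astrocyte genes, whose median depths were 1058 and 858.5 UMIs. A C1q UMI was found in 6.10% of the former and 10.5% of the latter, given as description because C1q was used in the choice. The part of free RNA in these UMIs was not tested. Cst3 made up 10.7% of the UMIs of the low-RNA barcodes, 0.160% of those of the shallow oligodendrocyte barcodes and 2.14% of those of the shallow astrocyte barcodes. Tyrobp and Cst3 RNA was thus well above the level seen in these shallow barcodes of other types.

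The low-RNA barcodes formed 12.5%, 8.36%, 9.15% and 7.75% of the barcodes of the respective libraries, so the highest share lay in WT replicate 1 and the WT and Dp(10)2Yey values overlapped. The mean was 10.4% ± 2.94 (SD, n = 2) in WT and 8.45% ± 0.988 (SD, n = 2) in Dp(10)2Yey, a difference of -1.99 (exact permutation test over libraries, two-sided, p = 0.667). As a share of low-RNA barcodes and reference microglia together the values were 31.2%, 21.2%, 24.8% and 17.7%, again overlapping (difference -4.95, exact permutation test, two-sided, p = 0.667). With 2 libraries against 2 this test cannot give a two-sided p below 0.333.

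Malat1 divided the low-RNA barcodes into 2 kinds. No Malat1 UMI was found in 407 of the 565 (72.0%), and the share was 74.2%, 63.8%, 80.6% and 70.9% in the respective libraries, beside 1.97% of the reference microglia. A count of 0 or 1 was found in 444 barcodes, a count of 2 to 9 in 17, and a count of 10 or more in 104. These ranges were chosen after the counts were seen. Few barcodes lay between the extremes, and of the 17 in the middle range 11 came from WT replicate 1. Those with 10 or more Malat1 UMIs made up 13.3%, 29.8%, 12.1% and 17.4% of the low-RNA barcodes of the respective libraries, highest in WT replicate 2.

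The split was also present when 500 UMIs were drawn at random from every barcode. At that equal depth 75.0%, 66.0%, 83.1% and 73.8% of the low-RNA barcodes had no Malat1 UMI, beside 4.26%, 2.48%, 3.19% and 1.75% of the reference microglia. The median Malat1 count in 500 UMIs was 0 in the low-RNA barcodes, 13 in the reference and 25.5 in the low-RNA barcodes with 10 or more Malat1 UMIs before thinning. The lowest share without Malat1 in any library of the low-RNA barcodes was far above the highest in the reference. Other barcodes of 200 genes or more and under 1500 UMIs, 1138 in all, also had 0 or 1 Malat1 UMI in many cases (55.2%), so a low Malat1 count was not found in the microglia-like barcodes alone.

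**Figure D1:**
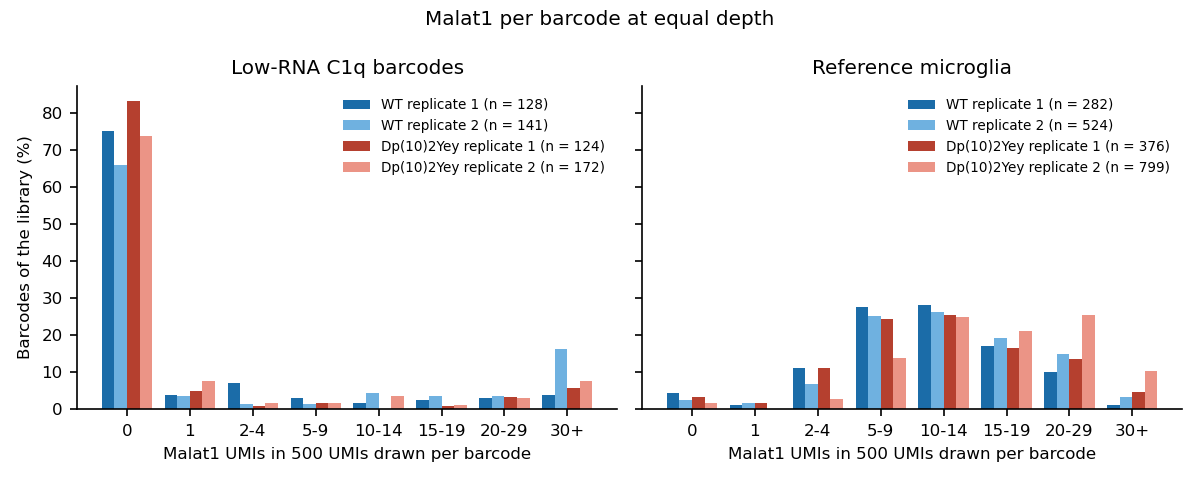
Malat1 UMIs among 500 UMIs drawn from each barcode (horizontal axis) against the percentage of barcodes (vertical axis) in each library, for the low-RNA barcodes and the reference microglia. Of all low-RNA barcodes 74.2% sit at 0, beside 2.57% of the reference.

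Immediate early genes were low in the Malat1-poor and high in the Malat1-rich barcodes. The 26 genes of this list (among them Fos, Jun and Egr1, transcription factors made within minutes of a stimulus) gave 1.38%, 1.46%, 0.667% and 0.820% of the UMIs of the low-RNA barcodes and 5.02%, 4.97%, 4.63% and 5.24% of those of the reference. The low-RNA barcodes were lower in each of the 4 libraries. Among low-RNA barcodes with 0 or 1 Malat1 UMI the share was 0.262%, 0.0793%, 0.0635% and 0.136%, and among those with 10 or more it was 5.26%, 4.27%, 4.36% and 3.67%, close to the reference. The 17 barcodes in between were mixed, with 4.70% in the 11 of WT replicate 1, 1.04% in the 2 of WT replicate 2 and 0.0952% in the 4 of Dp(10)2Yey replicate 2. In 500 drawn UMIs, 4 of the 444 Malat1-poor barcodes had 10 or more UMIs of these genes, beside 79 of the 104 Malat1-rich ones (76.0%) and 87.0% of the reference microglia.

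The 2 kinds also differed in their cytoplasmic RNA. Genes of the cytosolic ribosome gave 29.4%, 25.7%, 28.6% and 25.0% of the UMIs of the Malat1-poor barcodes and 8.37%, 6.21%, 7.89% and 6.15% of those of the Malat1-rich ones. The reference lay between them at 13.9%, 14.0%, 13.8% and 12.7%. Mitochondrial messages, in contrast, were high in both kinds, with 5.89% of UMIs in the Malat1-poor and 6.86% in the Malat1-rich barcodes, beside 2.73% in the reference. The Malat1-poor barcodes had a median of 769.5 UMIs and 353 genes and the Malat1-rich ones 967 UMIs and 508.5 genes. Both kinds carried Tyrobp in 500 drawn UMIs, in 90.5% of the poor and 53.8% of the rich barcodes. Among other low-RNA barcodes Tyrobp was seen in 8.26%.

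Across depth, the share of Malat1-poor barcodes fell on both sides of the limit of 1500 UMIs. Among barcodes that passed the same limits on C1q and on other markers at any depth, 84.6% of 241 with under 750 UMIs had 0 or 1 Malat1 UMI, and 79.7% of 153 from 750 to under 1000. In the last 2 ranges below 1500 UMIs the share was 73.9% of 111 barcodes and 60.0% of 60. It was 56.9% of 109 barcodes from 1500 to under 2000 UMIs, 16.1% of 87 from 2000 to under 2500 and 4.52% of 177 from 2500 to under 3000. Immediate early genes gave 0.844% of UMIs in the lowest range and 1.41%, 4.37% and 5.32% in the last 3 of these. Mitochondrial messages gave 6.17%, 5.86%, 6.20% and 6.36% in the 4 ranges below 1500 UMIs, with no fall, and 4.64%, 2.38% and 2.27% in the next 3. The limit of 1500 UMIs thus lies inside the range over which the Malat1 share changed, with a small step across it and a larger one at 2000 UMIs, and 62 Malat1-poor barcodes sit just above it. In single libraries some of these ranges hold fewer than 20 barcodes, and the values given are for the libraries together.

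**Figure D2:**
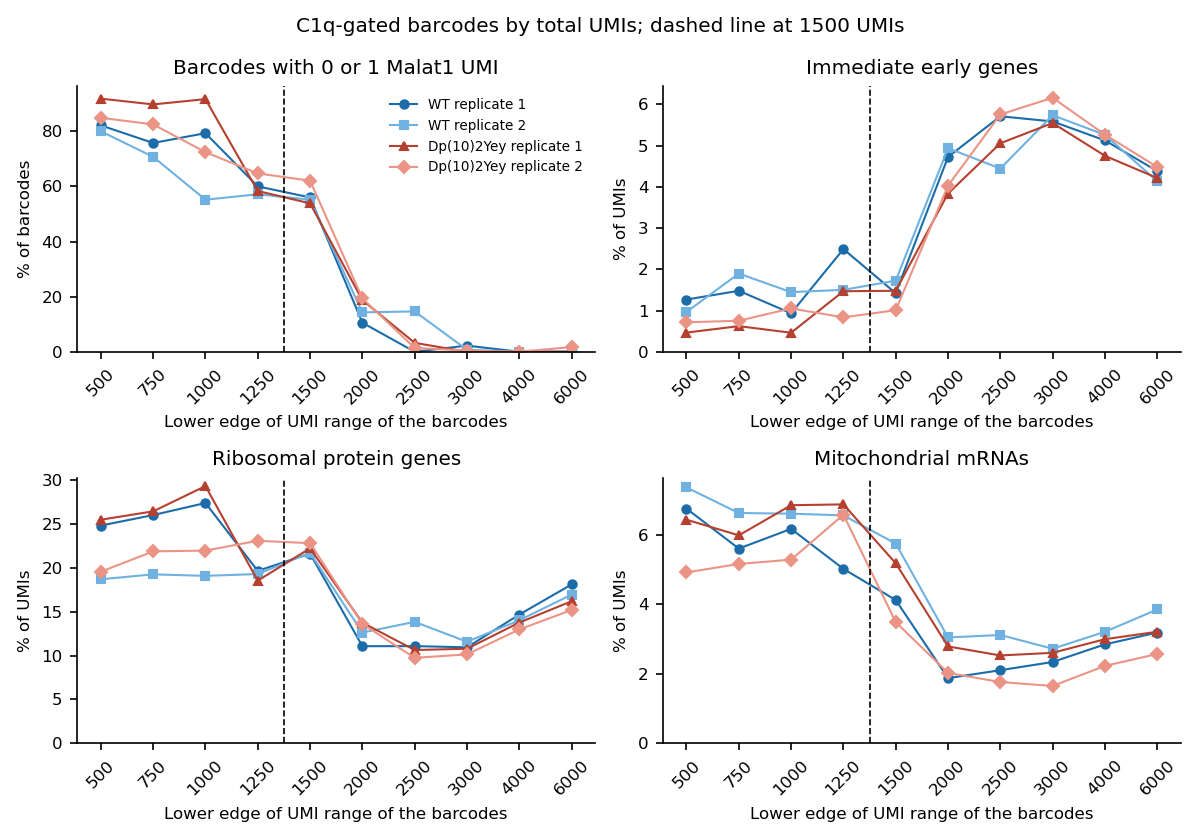
C1q-gated barcodes by range of total UMIs (horizontal axis), with the percentage of barcodes with 0 or 1 Malat1 UMI and the percentages of UMIs from immediate early, mitochondrial and ribosomal protein genes (vertical axes) in each library. With all libraries together the share with 0 or 1 Malat1 UMI goes from 56.9% at 1500 to under 2000 UMIs to 16.1% at 2000 to under 2500.

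For tests across genes, UMIs were summed per library and class, and levels are CPM, counts scaled to a common total after TMM normalization. With library as a term, edgeR's quasi-likelihood test, with p values adjusted by Benjamini-Hochberg, called 443 of 5996 genes higher in the low-RNA barcodes than in the reference (7.39%) and 277 lower (4.62%) at an adjusted p under 0.01, with the genes of the choice left out. Without Dp(10)2Yey replicate 1 the count of lower genes was 163. The median log2 fold change of all genes tested was -0.12. Scaling by total UMIs in place of TMM moved it by -0.43, to -0.55, and called 197 genes higher (3.29%) and 736 lower (12.3%), and the 197 and the 277 were called the same way under both scalings. Restricting the low-RNA barcodes to those with 0 or 1 Malat1 UMI, a setting chosen after seeing the data, called 540 of 5825 genes higher (9.27%) and 770 lower (13.2%). In what follows a median for a list stands beside -0.12, by total UMIs beside -0.55, and with the Malat1-poor barcodes alone beside -0.38. The direction also held by total UMIs unless a sentence says otherwise.

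Immediate early genes had the lowest median of the lists tested in this comparison. Of 26 tested, 22 were called lower and 0 higher by edgeR, where 24 had an unadjusted p under 0.05, and the median was -1.70. Fos stood at 1500, 950, 753 and 476 CPM in the low-RNA barcodes and at 5150, 4820, 4139 and 4715 CPM in the reference. Each library was lower, with Dp(10)2Yey replicate 2 the lowest (log2 fold change -2.44, SE 0.17, edgeR adjusted p = 1.42e-16). Egr1 stood at 1345, 1009, 495 and 558 CPM against 3522, 3896, 3849 and 3869 CPM, and Jun at 1875, 2053, 1046 and 1336 CPM against 5949, 5944, 5231 and 6561 CPM. Both were lower in all 4 libraries, by more than the spread among them (Jun log2 fold change -1.94, edgeR adjusted p = 8.35e-15).

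Chemokines and cytokines, the signals by which microglia call other cells, were lower too, with 9 of 13 tested genes called and a median of -1.68. The list gave 0.0790% of the UMIs of Malat1-poor barcodes and 0.667% of those of Malat1-rich ones. With the Malat1-poor barcodes alone, a setting chosen after seeing the data, the median was -3.23. Ccl4 stood at 1676, 1899, 720 and 631 CPM in the low-RNA barcodes and at 3845, 3852, 3474 and 3374 CPM in the reference (log2 fold change -1.68, edgeR adjusted p = 1.92e-11). The groups did not overlap, and the Dp(10)2Yey libraries were the lower ones among the low-RNA barcodes. Tnf, which encodes the cytokine TNF, had 18 UMIs in the low-RNA barcodes (4, 7, 0 and 7) against 2683 in the reference, a ratio of UMI shares of 0.123 (exact 95% interval for counting error 0.0729 to 0.195). Together the list gave 0.279%, 0.313%, 0.117% and 0.182% of UMIs against 0.804%, 0.843%, 0.756% and 0.792%, a mean of 0.223% ± 0.0899 (SD, n = 4) against 0.799% ± 0.0358 (SD, n = 4; exact paired permutation test, two-sided, p = 0.125). The smallest two-sided p that 4 pairs allow is 0.125.

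Genes that NF-κB induces and that restrain it were reduced too, with 10 of 17 called lower and a median of -1.46. They gave 0.0471% of UMIs in Malat1-poor and 0.540% in Malat1-rich barcodes, and the median with the Malat1-poor barcodes alone was -4.00. Nfkbia, the inhibitor that holds NF-κB in the cytoplasm, stood at 507, 308, 146 and 148 CPM against 1197, 1248, 1229 and 1225 CPM (log2 fold change -2.22, edgeR adjusted p = 3.58e-13). Zfp36, a protein that binds AU-rich elements and speeds the decay of messages such as that of Tnf, stood at 673, 744, 337 and 385 CPM against 2352, 2571, 2372 and 2426 CPM. All 4 libraries were lower for both genes. The largest fall among the named genes was that of Gadd45b, a stress-induced gene with 4 UMIs in the low-RNA barcodes (1, 0, 0 and 3), a ratio of UMI shares of 0.0613 (exact 95% interval 0.0167 to 0.157). Id2, Rnf19b, Ifrd1, Nfkbiz, Cited2 and Zfp36l1 completed the 12 named genes on this side, with log2 fold changes from -2.47 to -2.12.

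Many messages of these groups carry AU-rich elements, copies of ATTTA in the 3′ untranslated region (UTR) by which proteins such as Zfp36 shorten their life. The sequences below show such stretches for 6 of the reduced genes, out of 15 that were searched. A stretch was taken only from UTRs that also held the longer motif TATTTAT, and not every gene searched gave one. The sequences are the 30-base windows of the annotated 3′ UTRs with the most copies of ATTTA, which is in capitals. They are written 5′ to 3′ on the strand of the gene (GRCm38, GENCODE vM21 transcripts), at chr17:35199679-35199708 (minus strand) for Tnf, chr12:85477091-85477120 (plus) for Fos, chr7:28376963-28376992 (minus) for Zfp36, chr2:129300109-129300138 (minus) for Il1a, chr11:83648085-83648114 (minus) for Ccl3 and chr12:55489619-55489648 (minus) for Nfkbia.
Tnf: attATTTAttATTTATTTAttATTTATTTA
Fos: acgtttttattgtgttttcaATTTATTTAt
Zfp36: tgggccctttATTTAtgacgactttATTTA
Il1a: attttatctatgtATTTAtaaatatATTTA
Ccl3: gactcttcacttgaaattttATTTAATTTA
Nfkbia: aacctaatgaaaggaccacgttttATTTAt

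The longer motif TATTTAT, searched on the sense strand of 3′ UTRs, was counted in all genes tested. It occurred in 139 of 274 genes called lower with an annotated UTR (50.7%) and in 34 of 426 called higher (7.98%), beside 1801 of 5916 genes tested (30.4%). UTR length moves with this share, since the median was 1476 bases for genes called lower, 274.5 for genes called higher and 1187 for all tested. Per kilobase of UTR the motif occurred 0.441 times in the lower genes, 0.161 times in the higher genes and 0.281 times in all tested, so the order was the same per length. The chemokine list had the most copies among the lists counted, 1.81 per kilobase with a match in 8 of 13 genes, followed by the immediate early list with 0.660 per kilobase and a match in 14 of 26. Of 81 ribosomal protein genes 2 held the motif, in UTRs with a median of 99 bases. A match is a description of the letters, and the part of UTR length or of message stability in the differences was not tested.

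On the other side stood the ribosomal protein genes, of which 79 of 81 tested were called higher, with a median log2 fold change of 1.16 (74 by total UMIs, median 0.72). Their summed share of UMIs was 25.2%, 19.1%, 25.7% and 21.3% in the low-RNA barcodes and 13.9%, 14.0%, 13.8% and 12.7% in the reference, a mean of 22.8% ± 3.18 (SD, n = 4) against 13.6% ± 0.593 (SD, n = 4; exact paired permutation test, two-sided, p = 0.125). It was higher in 4 of 4 libraries. Rplp1, a protein of the ribosomal stalk, stood at 12868, 8298, 13786 and 8584 CPM against 4725, 4398, 4652 and 3492 CPM (log2 fold change 1.31, edgeR adjusted p = 1.94e-10). Translation factors followed with 14 of 20 called higher and a median of 0.86, and 7 higher with 3 lower by total UMIs.

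All 13 mitochondrial messages were called higher under both scalings, with a median of 1.55 (1.11 by total UMIs). Their share of UMIs was 6.06%, 6.78%, 6.46% and 5.33% in the low-RNA barcodes and 2.71%, 3.34%, 3.04% and 2.19% in the reference, a mean of 6.16% ± 0.626 (SD, n = 4) against 2.82% ± 0.492 (SD, n = 4; exact paired permutation test, two-sided, p = 0.125). The groups did not overlap, although only 3 low-RNA barcodes had more than 20% mitochondrial UMIs. Messages of the respiratory chain made in the nucleus were higher too, with 48 of 74 called higher and a median of 0.95 (29 and 0.51 by total UMIs). These nuclear messages gave 2.28% of UMIs in the Malat1-poor and 0.856% in the Malat1-rich barcodes, beside 5.89% and 6.86% for the mitochondrial ones. Cox4i1, a subunit of cytochrome c oxidase, stood at 1489, 932, 1608 and 1230 CPM against 586, 509, 573 and 459 CPM (log2 fold change 1.29, edgeR adjusted p = 4.78e-10). The 3 transcripts that overlap or resemble ribosomal RNA (Gm42418, AY036118 and Lars2) were also called higher, with a median of 1.34.

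Microglial genes outside the choice were called in both directions. Of 39 tested, 12 were called higher and 3 lower with a median of 0.22, beside -0.12 for all genes. By total UMIs, a scaling that lowers all genes alike, 5 were higher and 7 lower. The median was then -0.21, beside -0.55 for all genes. Cst3 stood at 120939, 105538, 130708 and 139175 CPM against 52055, 47462, 53796 and 51157 CPM, and its log2 fold change was 1.27 (edgeR adjusted p = 2.62e-09; 0.84 by total UMIs). Tyrobp stood at 6274, 4217, 6342 and 5009 CPM against 2626, 2358, 2543 and 2180 CPM, and its log2 fold change was 1.15 (edgeR adjusted p = 1.68e-09; 0.72 by total UMIs). These 2 markers were higher in each library of the pooled low-RNA barcodes. Their levels differed by kind. Cst3 made up 11.8% of the UMIs of the Malat1-poor barcodes and 6.99% of those of the Malat1-rich ones. Tyrobp, as given above, was seen at equal depth in a smaller share of the Malat1-rich barcodes. A rise of these markers in the Malat1-rich barcodes alone was not tested. Trem2, a receptor that signals through Tyrobp, was higher by 0.71, and by total UMIs its 0.28 was not called (edgeR adjusted p = 0.0744). Csf1r, the receptor for the growth factor that microglia need to survive, was not called under either scaling (log2 fold change 0.44, edgeR adjusted p = 0.0166; 0.01 by total UMIs).

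Lysosomal and cathepsin genes had 13 of 25 called higher and a median of 0.54 (4 called and 0.10 by total UMIs). Genes of the disease-associated microglial state had 10 of 14 called higher and 1 lower with a median of 0.61, and 4 higher with 1 lower by total UMIs, while Spp1, Itgax, Gpnmb and Ch25h of that list had no UMI in the low-RNA barcodes. Genes of antigen presentation and interferon had 6 of 12 higher and a median of 0.64, and 2 higher with 1 lower by total UMIs. Without barcodes with a border macrophage UMI, a setting chosen after seeing the data, 4 of the 12 were called higher. Their median was then 0.56, beside -0.0969 for all genes tested. Glycolysis genes had 5 of 12 higher and a median of 0.61, where edgeR by total UMIs called 0 (5 with an unadjusted p under 0.05). Fc receptor adaptors and the cytoskeleton list had medians of 0.16 and 0.28. By total UMIs these were -0.28 and -0.16, beside -0.55 for all genes. Heat shock genes were lower, with 6 of 12 called and a median of -0.61, and apoptosis genes had 2 of 15 called lower and a median of -0.67. Growth and membrane receptors had 1 of 18 higher and 4 lower (median -0.37), and 0 higher and 10 lower by total UMIs (median -0.80). The iron and oxidative stress list had 5 of 14 higher and 3 lower (median -0.16), and 1 higher and 5 lower by total UMIs (median -0.59). Complement genes other than C1q had 1 of 7 called in each direction and a median of 0.24. By total UMIs their median was -0.19, beside -0.55 for all genes. Of the 19 genes of that list 11 had no UMI in the low-RNA barcodes, among them C3, which the study names and which had no UMI in the reference either.

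Malat1 made up most of the nuclear retained RNA, with 5845 of the 5954 UMIs of that list in the low-RNA barcodes. The list gave 0.754%, 2.13%, 0.844% and 1.07% of UMIs against 2.15%, 2.56%, 2.39% and 3.33%, a mean of 1.20% ± 0.632 (SD, n = 4) against 2.61% ± 0.509 (SD, n = 4; exact paired permutation test, two-sided, p = 0.125). By this share the low-RNA barcodes were lower within each library, although WT replicate 2 came close to the lowest reference value. Of the 4 tested RNAs of this list 1 was called lower, Malat1, at 8865, 22781, 10086 and 12142 CPM against 18058, 22099, 20136 and 27928 CPM (log2 fold change -0.80, edgeR adjusted p = 0.000103). In CPM it was lower in 3 of 4 libraries and slightly higher in WT replicate 2, and it was not called when either Dp(10)2Yey library was left out. Other long noncoding RNAs had 2 of 56 called in each direction and a median of -0.05, where total UMIs gave 1 higher, 7 lower and a median of -0.48. In the Malat1-poor barcodes the median was -1.49. The number of genes found in 500 drawn UMIs was lower as well, with library medians of 263, 275, 266 and 273 against 341, 336, 343 and 339.

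**Figure D3:**
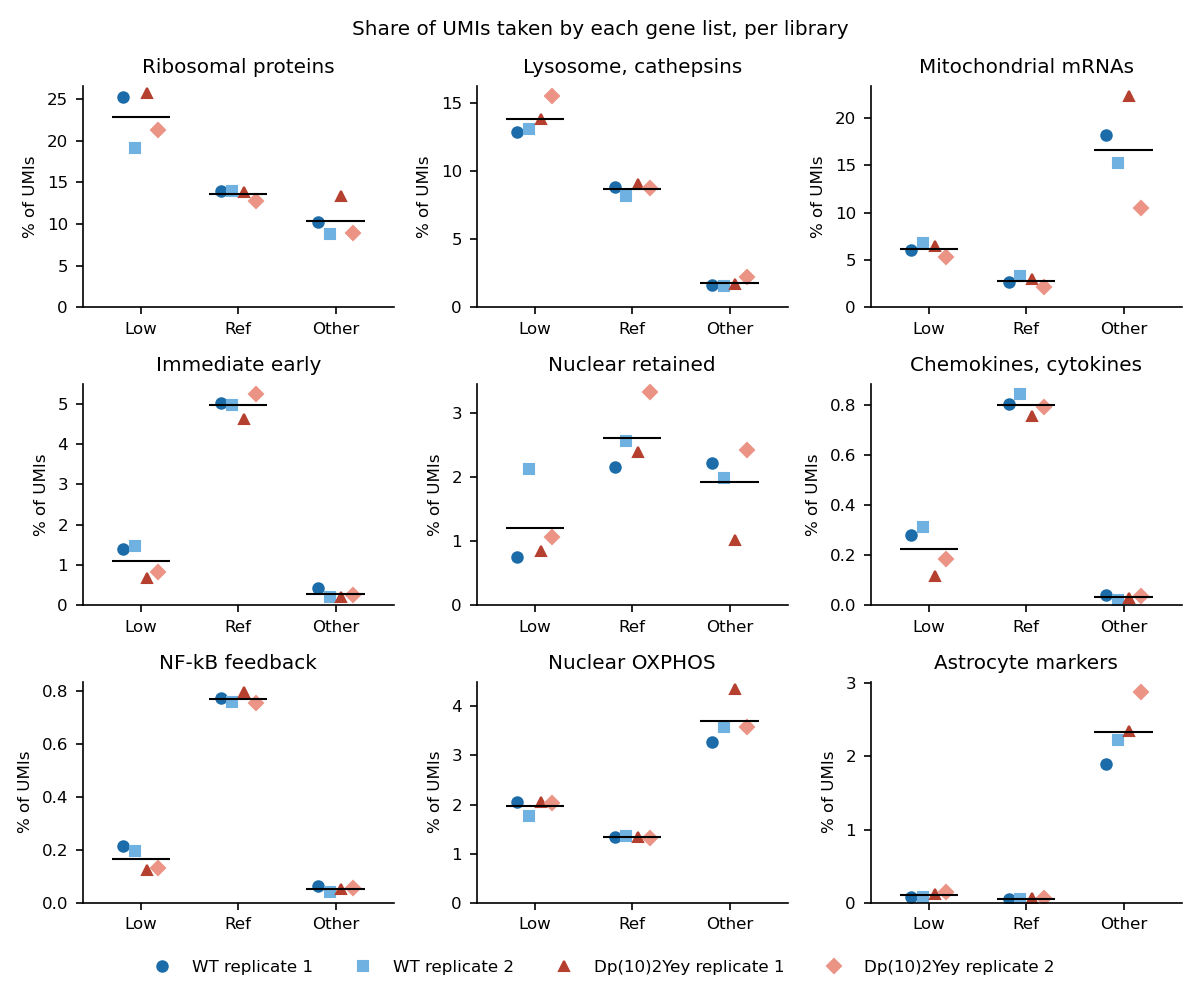
Percentage of UMIs (vertical axes) from each of 9 gene lists in the low-RNA barcodes, the reference microglia and the other low-RNA barcodes, 1 point per library with the mean of the 4 libraries as a black line. Ribosomal protein genes average 22.8% in the low-RNA barcodes and 13.6% in the reference, and chemokines 0.223% and 0.799%.

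**Figure D4:**
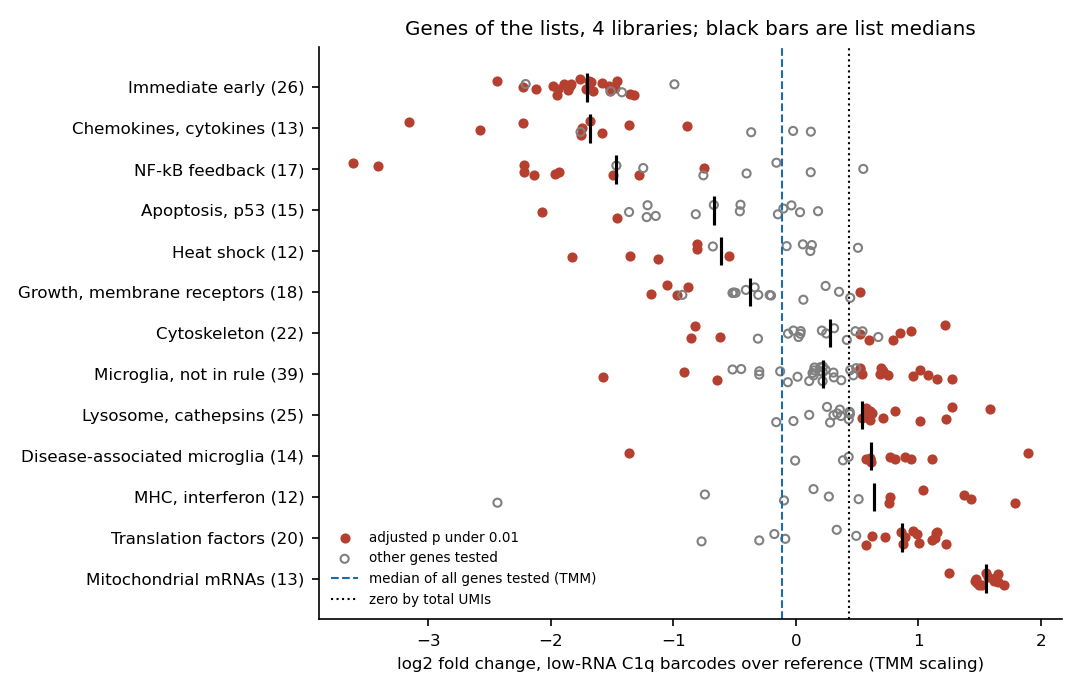
Log2 fold change of low-RNA barcodes over reference microglia for the tested genes of 13 lists, with genes called at an adjusted p under 0.01 as filled points, list medians as black bars, the median of all genes tested as a dashed line and the zero of total-UMI scaling as a dotted line. The medians run from -1.70 for immediate early genes to 1.55 for mitochondrial messages.

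Some of the named genes that rose are known from other cells. Mt3, a metallothionein abundant in astrocytes, stood at 276, 171, 382 and 467 CPM against 47.2, 47.4, 77.8 and 93.9 CPM (log2 fold change 2.26, edgeR adjusted p = 9.01e-14). It had a UMI in 14.5% of the low-RNA barcodes, in 16.9% of the deeper reference and in 65.5% of other low-RNA barcodes. Of 10 tested astrocyte genes 6 were called higher with a median of 1.54, and all 14 genes of the list gave 0.0746%, 0.0798%, 0.118% and 0.145% of UMIs against 0.0490%, 0.0490%, 0.0611% and 0.0671% in the reference, beside 2.35% in other low-RNA barcodes. The astrocyte list had its most abundant gene in Mt3, and none of its genes was at 0. Cpe and the oligodendrocyte gene Mobp rose by 1.84 and 1.63. The oligodendrocyte list had 3 of 11 called higher and a median of 0.27. By total UMIs its median was -0.15, beside -0.55 for all genes, with 1 called higher. This list gave 0.139% of UMIs against 0.155% in the reference. Neuronal genes had 0 of 2 called by edgeR (1 with an unadjusted p under 0.05) and red blood cell genes 0 of 4 (0 with an unadjusted p under 0.05). Endothelial genes had 1 of 2 called higher and genes of dividing cells 2 of 4, calls that were not made by total UMIs. The part of free RNA in these rises was not tested.

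A UMI of genes of macrophages at the borders of the brain was found in 3.36% of the low-RNA barcodes, 3.48% of the deeper reference and 2.90% of other low-RNA barcodes. Pf4, the most abundant of the 8 genes of that list, had 22, 13, 0 and 41 UMIs in the respective libraries, 69 of them in 10 barcodes, and 14 of the 565 had a UMI of it. Its log2 fold change of 2.96 (edgeR adjusted p = 4.84e-10) thus rests on few barcodes and on 3 libraries. Apoe, a lipid carrier, stood at 3992, 2096, 1709 and 11503 CPM against 1025, 1008, 761 and 1152 CPM (log2 fold change 1.90, edgeR adjusted p = 3.54e-11), with 63.9% of its UMIs in 10 barcodes. Dp(10)2Yey replicate 2 was far above the other libraries. Lyz2, a lysozyme of macrophages, stood at 706, 522, 315 and 877 CPM against 188, 227, 221 and 168 CPM, and was called higher by 1.58 with 40.8% of its UMIs in 10 barcodes. Less variable among libraries was Tspo, a protein of the outer mitochondrial membrane, at 154, 240, 326 and 230 CPM against 62.4, 75.6, 72.4 and 64.3 CPM (log2 fold change 1.78, edgeR adjusted p = 6.86e-10). Markers of white blood cells were nearly absent from the low-RNA barcodes, with no UMI for 8 of 9 monocyte and neutrophil genes (S100a8, S100a9 and Ccr2 among them) and for 9 of 10 lymphocyte genes. For 5 of 9 oligodendrocyte precursor genes, 5 of 9 ependymal genes and 5 of 8 pericyte genes there was none either.

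A second comparison used the same limits on C1q and on other markers at 1500 UMIs or more, which 1994 barcodes passed, 1939 of them also reference microglia. It shares the low-RNA barcodes and most of the deeper ones with the first comparison. Here edgeR called 464 of 5907 genes higher (7.86%) and 289 lower (4.89%), and the lower count was 185 when Dp(10)2Yey replicate 1 was left out and 187 when Dp(10)2Yey replicate 2 was. In this comparison the resting genes were not used in the choice, and Cx3cr1, the receptor for the neuronal chemokine fractalkine, was lower at a mean of 1875 CPM against 3684 CPM (log2 fold change -0.99, edgeR adjusted p = 1.95e-08). The other resting genes were not called, with log2 fold changes of -0.19 for the purine receptor P2ry12, -0.09 for Tmem119 and -0.08 for Gpr34, but by total UMIs these were -0.61, -0.51 and -0.50 and were called (edgeR adjusted p = 0.000207, 0.00393 and 0.0034). Between the kinds of low-RNA barcodes, Cx3cr1 was seen in 500 drawn UMIs of 30.6% of the Malat1-poor and 85.6% of the Malat1-rich barcodes. In the reference the share was 83.9%, given as description only, since Cx3cr1 was used in choosing the reference.

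Set against the other low-RNA barcodes, with a median of 842.5 UMIs, the microglia-like ones differed in many genes of cell types. EdgeR called 595 of 2338 genes higher (25.4%) and 706 lower (30.2%). These other barcodes are the ones that failed the limits on C1q or on other markers, so the directions of genes of microglia and of other cell types follow from the choice and are given as description. All 37 tested microglial genes outside the choice were called higher, with a median log2 fold change of 4.19 beside -0.16 for all genes tested, and the largest rises were those of Ctss, Inpp5d and Mpeg1. Ribosomal protein genes were again higher (76 of 80, median 1.30), and so were immediate early genes (19 of 19, median 1.98). By share of UMIs, immediate early genes gave 0.133% in the Malat1-poor and 4.27% in the Malat1-rich barcodes. In the shallow oligodendrocyte and astrocyte barcodes they gave 0.276% and 0.112%. Mitochondrial messages, in contrast, were lower in the microglia-like barcodes (13 of 13, median -1.20), at 6.13% of UMIs beside 16.5% in other low-RNA barcodes. Astrocyte genes (14 of 14), endothelial genes (7 of 7) and neuronal genes (6 of 6) were called lower. The high mitochondrial share of the low-RNA barcodes thus holds against full-size microglia and not against shallow barcodes as a whole.

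The study asked how hippocampal cells of Dp(10)2Yey mice differ from those of WT mice, and within the low-RNA barcodes edgeR called 0 of 1319 genes higher (0%) and 0 lower (0%) at an adjusted p under 0.01. An unadjusted p under 0.05 was reached by 80 genes, and DESeq2 called 0 with 24 at that level. Leaving out WT replicate 1 gave 5 higher and 7 lower, WT replicate 2 gave 3 and 3, Dp(10)2Yey replicate 1 gave 4 and 3, and Dp(10)2Yey replicate 2 gave 0 and 3. All 19 tested immediate early genes had a fold change below 0, 18 with an unadjusted p under 0.05, and their median was -0.92 beside -0.00 for all genes tested. The 6 chemokine genes and the 5 NF-κB genes tested were below 0 as well, with medians of -0.79 and -1.03. Ccl4 had the smallest p, at 1416, 1732, 596 and 539 CPM when the low-RNA barcodes are normalized among themselves, without the reference (log2 fold change -1.47, edgeR adjusted p = 0.0974). Both Dp(10)2Yey libraries lay below both WT libraries, and the gene did not pass the threshold. It was called lower with the replicate number as a block, where it was the 1 gene called, and without WT replicate 1, and it was not called under the other alternatives, crossed pairs included.

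Low-RNA barcodes rich in immediate early genes were counted from the same UMIs as the genotype values of these genes. Their shares are therefore given as description. In 500 drawn UMIs, 21.1% and 22.0% of the WT low-RNA barcodes and 8.87% and 14.0% of the Dp(10)2Yey ones had 10 or more UMIs of immediate early genes. The share of Malat1-rich barcodes, counted without these genes, overlapped between the genotypes (13.3% and 29.8% in WT, 12.1% and 17.4% in Dp(10)2Yey). Within the Malat1-poor barcodes the summed shares of immediate early genes given above overlapped between the genotypes, and within the Malat1-rich ones they overlapped as well. The 11 barcodes of WT replicate 1 with 2 to 9 Malat1 UMIs held 481 UMIs of immediate early genes and 125 of chemokines, and Dp(10)2Yey replicate 1 had no barcode in that range. Restricted to Malat1-poor barcodes, a setting chosen after seeing the data, edgeR called 0 of 905 genes, with 44 at an unadjusted p under 0.05. The part of the mixture of the 2 kinds in the genotype values was not tested.

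**Figure D5:**
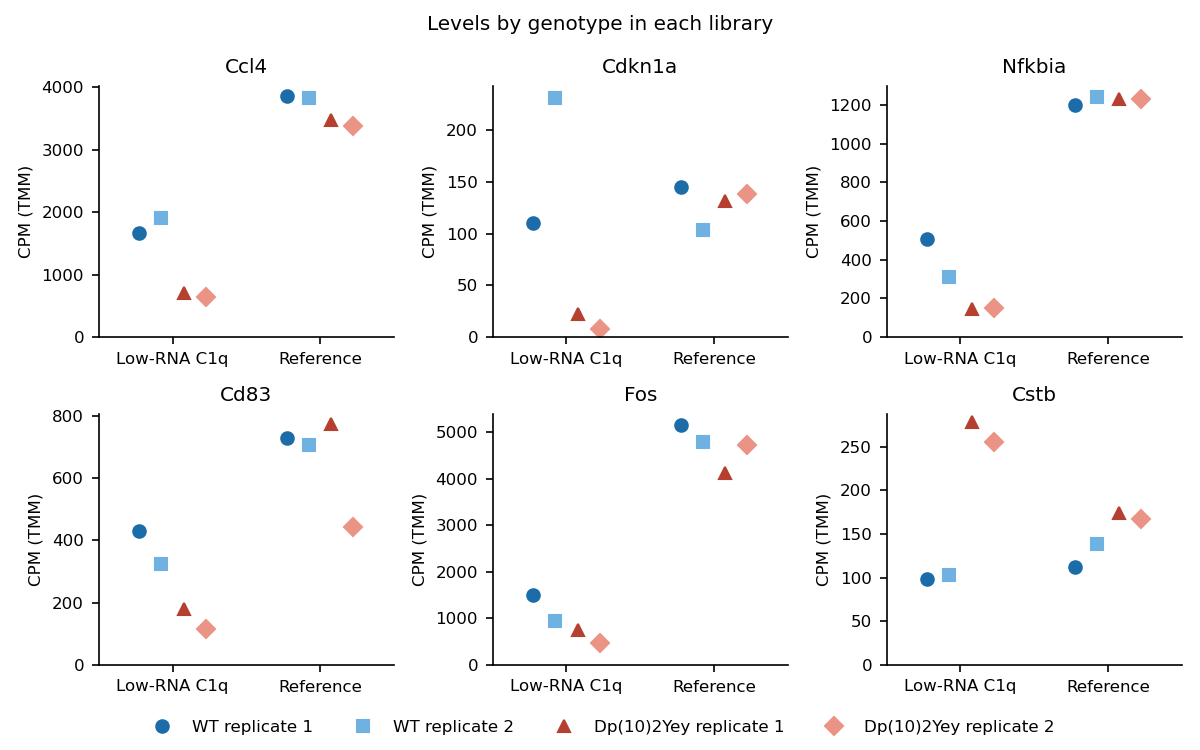
Levels in CPM (vertical axes) of Ccl4, Cdkn1a, Nfkbia, Cd83, Fos and Cstb in the low-RNA barcodes and the reference microglia of each library, 1 point per library. Among the low-RNA barcodes Cdkn1a stands at 110 and 231 in WT and at 22.3 and 8.26 in Dp(10)2Yey.

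Whether the genotype difference itself differed between low-RNA barcodes and reference was tested as an interaction, in which edgeR called 0 of 6889 genes higher (0%) and 1 lower (0.0145%), with 278 at an unadjusted p under 0.05. DESeq2 called 0, with 67 at that level. The gene was Cdkn1a, an inhibitor of the cell cycle that p53 induces, at 110, 231, 22.3 and 8.26 CPM in the low-RNA barcodes and 144, 103, 131 and 138 CPM in the reference (interaction log2 fold change -3.78, SE 0.69, edgeR adjusted p = 0.00486). These levels rest on 10, 27, 2 and 1 UMIs, and 34 of the 40 came from Malat1-rich barcodes. It was not called by DESeq2, by total UMIs, without called doublets, without WT replicate 2 or without Dp(10)2Yey replicate 2. Leaving out WT replicate 1 gave 8 genes higher and 7 lower, WT replicate 2 gave 0 and 9, Dp(10)2Yey replicate 1 gave 3 and 2, and Dp(10)2Yey replicate 2 gave 1 and 0.

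The duplicated segment could be read only in part at this depth. Its genes were taken here as all annotated protein-coding genes from Prmt2 to Pdxk (chr10:76207222-78464975, GRCm38). This is a wider set than the orthologs of human chromosome 21 genes that the study counts. Of these 62 genes 27 had a UMI in the low-RNA barcodes and 6 passed the filter on low counts. All 6 had a fold change above 0, with a median of 0.44 beside -0.00 for all genes tested and 0.58 for the log2 of 3 copies over 2. Cstb, an inhibitor of cathepsins in the cytosol, had 9, 12, 25 and 31 UMIs in the low-RNA barcodes (log2 fold change 1.32, edgeR adjusted p = 0.292). It was the only one of the 6 with both Dp(10)2Yey libraries above both WT libraries, an arrangement found for 199 of all 1319 genes tested (15.1%). Summed over the segment, the share of UMIs was 0.0912%, 0.0837%, 0.137% and 0.137% in the low-RNA barcodes and 0.101%, 0.105%, 0.159% and 0.153% in the reference. In both classes the Dp(10)2Yey libraries were above the WT libraries.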

How the data were processed

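The authors deposited raw UMI counts per gene and barcode for each library, made with Cell Ranger 3.0.2 against a custom mm10 reference, without normalization. The members and the gene lists were chosen with earlier results of these data known. UMIs were summed per library and class and fitted with edgeR 4.0.16 in R 4.3.3 (TMM, filterByExpr, quasi-likelihood test, Benjamini-Hochberg adjustment over all genes tested, adjusted p under 0.01), with library as a term between classes and no block between genotypes. The steps were tested on simulated data. Between genotypes 38% of the simulated 2-fold and 93% of the 4-fold changes were called. Between low-RNA barcodes and reference these were 18.6% and 66.7%, so many 2-fold changes would be missed in both comparisons. Single values were compared by exact permutation tests over libraries. Named genes were the 12 of largest change in each direction among those called with the same sign in all 4 libraries and at least 100 CPM in the higher class (6 in the other comparisons, or the 5 of smallest p where fewer than 3 passed), the 3 most abundant of each list, the markers, the genes the study names and the tested genes of the duplicated segment. Genes named outside this rule were chosen after their values were seen. Alternatives were DESeq2 1.42.0, RLE factors, total UMIs, no filter on low counts, other limits on depth, C1q and other markers, a replicate block, removal of doublets (Scrublet in scanpy 1.11.5) or of barcodes over 20% mitochondrial UMIs, and each library left out. The reporters eGFP and tdtomato had 0 UMIs. Precision is limited by 485093 UMIs in all low-RNA barcodes, and intervals cover counting error only.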

Additional observations from a re-analysis of the deposited data

Results flagged for a closer look

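The genotype difference of Cdkn1a differed between low-RNA barcodes and reference microglia by a test of the difference itself, with an interaction log2 fold change of -3.78 (edgeR adjusted p = 0.00486). In the low-RNA barcodes it rests on 40 UMIs, and its levels in the reference overlapped between the genotypes. Both WT libraries were above both Dp(10)2Yey libraries among the low-RNA barcodes. Of the 40 UMIs 34 came from barcodes with 10 or more Malat1 UMIs, which were most frequent in WT replicate 2. The gene was not called by DESeq2, by total UMIs, without the called doublets, without WT replicate 2 or without Dp(10)2Yey replicate 2. The cause was not tested.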

How the results depend on the processing

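Genes higher than in the reference numbered 443, and 197 by total UMIs, 282 without a filter on low counts and 161 with low-RNA barcodes of 1000 UMIs or more. Genes lower numbered 277, and 450 at an adjusted p under 0.05, 167 by DESeq2, 736 by total UMIs, 159 with 1000 UMIs or more and 770 with 0 or 1 Malat1 UMI, a setting chosen after seeing the data. Leaving out 1 library gave 319 to 410 higher and 163 to 236 lower. Against C1q-gated full-size barcodes, 464 higher became 210 by total UMIs, 297 without a filter and 166 with 1000 UMIs or more. There 289 lower became 483 at 0.05, 169 by DESeq2, 778 by total UMIs, 168 with 1000 UMIs or more and 185 to 245 without 1 library. Against other low-RNA barcodes, 595 higher became 364 and 706 lower became 398 with fewer than 1000 UMIs, where fewer genes were tested, and 1736 were lower without a filter. Within the low-RNA barcodes the genotype counts of 0 became 3 higher and 2 lower without a filter, 0 to 5 higher and 3 to 7 lower without 1 library, and 1 lower, Ccl4, with a replicate block (0 with the pairs crossed, a setting chosen after seeing the data). The interaction gave 1 higher at 0.05, 4 higher without a filter and 4 without barcodes over 20% mitochondrial UMIs, 0 lower by DESeq2, by total UMIs and without doublets, and 0 to 8 higher and 0 to 9 lower without 1 library. A genotype fit without a library assumes that the lone sample varies like the others. As medians over barcodes the differences were 3.05 for mitochondrial messages, -2.54 for nuclear retained RNAs and -0.387 for chemokines. Directions reversed for Hbb-bs (3.15) against a reference of 1500 to under 3000 UMIs, for Hk2 (-0.85) with 0 or 1 Malat1 UMI, both settings chosen after seeing the data, and for Cd74 (-1.51) against full-size barcodes with 1000 UMIs or more. The cause was not tested. For the genes named, 2086 other values kept direction and side of the threshold, 68 passed it, 111 no longer did and 54 moved.

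Depth limits the low-RNA barcodes to 1319 genes that passed the filter on low counts between genotypes. With 2 libraries per genotype, day and pairing could not be separated from the mice, since the pairing of replicates is not stated.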

Other observations

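Hbb-bs, a hemoglobin gene, had 21, 8, 7 and 210 UMIs in the low-RNA barcodes of the respective libraries, and 168 came from 1 barcode of the 57 with a UMI. Scrublet called 54 of the 6281 barcodes doublets (0.86%), 5 of them low-RNA barcodes.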
